A study of Mus musculus with 16 samples.

Results

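To describe which testicular cells express the genes of the basement membrane, 40 of the 30451 genes counted in single cells of the P2 mouse testis were examined. They were chosen by symbol: the laminin chain genes (5 alpha, 3 beta and 3 gamma), the integrin subunit genes (16 alpha and 8 beta), and 5 genes that link laminin to the rest of the matrix or to the cell, Nid1, Nid2, Hspg2, Agrn and Dag1. Whole testes of wild-type mice and of mice with a germ cell-specific Ddx5 knockout (Ddx5 cKO) were collected at postnatal day 2. In the cKO, floxed Ddx5 alleles are deleted by Cre recombinase under the Mvh promoter, which acts in germ cells. The study bred these mice from Ddx5 +/- fathers and floxed mothers, and whether their somatic cells kept both Ddx5 alleles was not tested. Mice of the study also carried an Oct4-GFP allele, and its methods name wild-type and Ddx5 +/- males as controls.

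The labels number 8 samples for each genotype, but the barcodes of the table carry only 1 of 2 suffixes, so that each genotype was 1 library here and no test between genotypes could be made. The 2 libraries held 84263163 and 67558106 UMIs (unique molecular identifiers, 1 for each captured mRNA). Barcodes with fewer than 2000 genes or over 10% mitochondrial UMIs were dropped, which left 6329 and 4950 cells (wild type, then the library labelled Ddx5 cKO), and 12 cell barcodes occurred in both. Ddx5 itself went against the label: its CPM (UMIs per 1000000 UMIs of the cells summed) in germ cells was 1842 against 1240 in wild type, a ratio of 1.49 (95% interval 1.35 to 1.63), while the ratio lay between 0.878 and 0.950 in the 5 somatic types. By single-cell qRT-PCR on sorted Oct4-GFP gonocytes, the study itself reports strongly lower Ddx5 mRNA in its knockout at P2. Whether the 3′ UMIs of Ddx5 lie in the deleted stretch is not given in the sources used here. Other counts went with the label: CRE had 0 and 20 UMIs, GFP 488 and 22, and germ cells numbered 66 and 8. The library is named by its label throughout. All values are given for wild type first and for the library labelled Ddx5 cKO second.

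Cells were assigned to 6 types by marker counts. Sertoli cells (2172 and 1599 cells) had at least 3 Amh UMIs, myoid cells (721 and 500) at least 5 Acta2 and 2 Myh11 UMIs, stromal cells (2857 and 2491) at least 1 Pdgfra UMI and at most 2 Amh UMIs, Leydig cells (164 and 128) at least 20 UMIs of 3 steroidogenic genes, macrophages (22 and 13) at least 5 C1q UMIs, and germ cells (66 and 8) at least 3 of 4 germ cell markers. No member served in these rules. Among the 6 types each list of other markers summed highest in its own type, but some were shared. Stroma markers summed to 30.6% and 30.8% of their stromal level in myoid cells and myoid markers to 29.7% and 29.1% of their myoid level in stroma. Leydig markers stood at 18.2% and 18.9% of their Leydig level in Sertoli cells, and Clu and Inha, which are on the Sertoli list, brought that list in Leydig cells to 34.4% and 32.5% of its Sertoli level. Red cell genes, which come from blood, stood at 65.9 and 636 CPM in stroma, 73.3 and 850 CPM in myoid cells and 118 and 256 CPM in Sertoli cells. They were at 3.38 and 1407 CPM in Leydig cells, 4442 and 12.2 CPM in macrophages and 8.14 and 13.5 CPM in germ cells.

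Basement membranes are thin sheets of matrix that surround the seminiferous cords and separate Sertoli cells, which lie inside the cords with the germ cells, from the flat myoid cells and the interstitium outside. Their core is a network of laminin, a trimer of 1 alpha, 1 beta and 1 gamma chain, which nidogen and perlecan (the product of Hspg2) connect to a network of type IV collagen. Cells hold on to laminin by integrins, pairs of an alpha and a beta subunit, and by dystroglycan (the product of Dag1), and the presence or absence of a partner gene in a cell limits which pairs and trimers it can make.

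The members fell into unlike patterns by cell type. Summed over all 40 genes, the level among the 6 types was highest in myoid cells (2631 and 2638 CPM) and stroma (2081 and 2077 CPM). It was lower in Sertoli cells (1159 and 1118 CPM), Leydig cells (1147 and 1093 CPM), macrophages (1203 and 939 CPM) and germ cells (792 and 355 CPM). In myoid and stromal cells most of this sum was matrix (Lamb1, Lama2, Nid1, Hspg2, Lamc3) and Itgb1. In Sertoli cells it was mostly receptor (Dag1, Itgb1, Itga6, Itgb5), and in macrophages it was almost wholly integrin. The UMI count marks 1 molecule near its 3′ end, so that levels of different genes were set side by side without division by length.

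**Figure D1:**
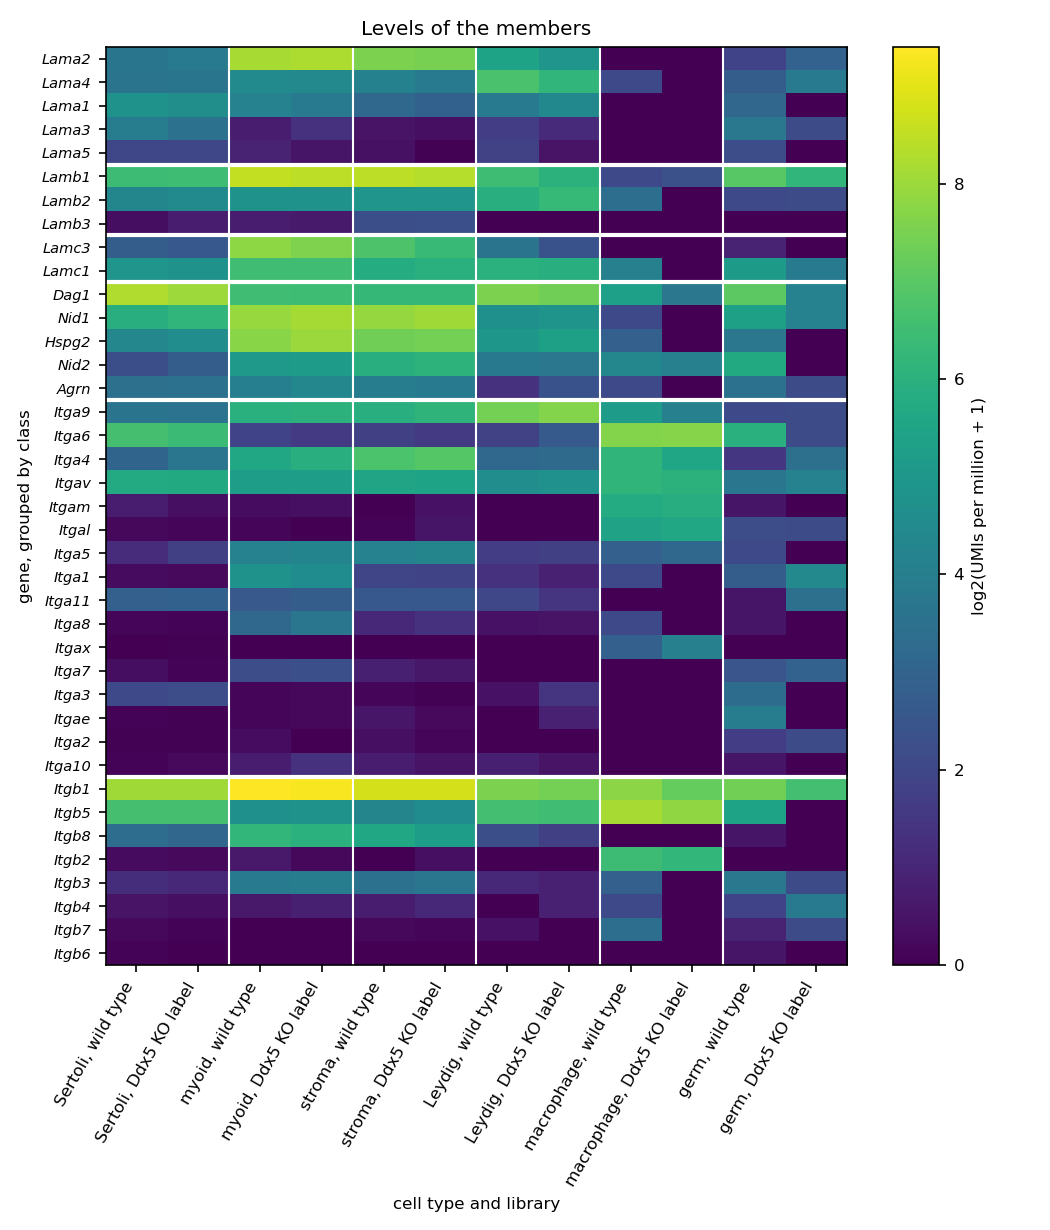
Level of the members reported (rows, grouped as laminin alpha, beta and gamma chains, linkers, integrin alpha and integrin beta subunits) in the 12 sums of 6 cell types and 2 libraries (columns), as log2(CPM + 1). Lama2, Lamb1, Lamc1 and Lamc3 are bright in myoid cells and stroma and dark or at low levels in macrophages. The columns of the libraries differ most in germ cells and macrophages, where the library labelled Ddx5 cKO holds 8 and 13 cells.

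Laminin alpha chains decide which receptors a laminin binds. Lama2, the chain of the laminins of muscle, was at 289 and 299.6 CPM (95% intervals 278 to 301 and 286 to 313) in myoid cells. In stroma it was at 185 and 177 CPM, in Leydig cells at 42.5 and 29.1 CPM, in Sertoli cells at 11.6 and 13.4 CPM, in germ cells at 2.71 and 6.76 CPM, and macrophages had 0 UMIs in both libraries. Both libraries ranked myoid cells above stroma and stroma above every other type. The log2 difference between myoid cells and stroma was 0.73 ± 0.23 (SE; edgeR adjusted p = 0.059), which missed the threshold of 0.05. The Sertoli level of Lama2 rested on called doublets, barcodes that Scrublet takes to hold a pair of cells: they were 171 of the 2172 and 188 of the 1599 Sertoli cells and held 12.1% and 18.6% of Sertoli UMIs, but 86.6% and 85.5% of the Lama2 UMIs. Without them Lama2 was at 1.77 and 2.38 CPM in Sertoli cells.

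Sertoli cells used other alpha chains. Lama1, the chain of the first laminins of the embryo, was at 26.4 and 24.0 CPM there, against 16.8 and 13.1 CPM in myoid cells, 13.9 and 20.1 CPM in Leydig cells and 8.09 and 6.48 CPM in stroma. Its log2 difference between Sertoli and myoid cells was 0.71 ± 0.17 (SE; edgeR adjusted p = 0.0043), and that between Sertoli and Leydig cells 0.54 ± 0.23 (SE; edgeR adjusted p = 0.079). Lama3, a chain of epithelial laminins, was at 14.6 and 10.5 CPM in Sertoli cells and at 12.7 and 3.38 CPM in germ cells, and did not pass 2.25 CPM in any other type. Lama5 reached only 3.00 and 3.05 CPM in Sertoli cells and 3.62 and 0 CPM in germ cells. Without called doublets the Sertoli levels were 27.5 and 24.6 CPM for Lama1, 15.2 and 10.8 CPM for Lama3 and 3.15 and 3.13 CPM for Lama5.

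Leydig cells, the steroid-producing cells between the cords, had Lama4, a chain of vessels and fat, at 103 and 72.1 CPM (95% intervals 91.1 to 116 and 61.9 to 83.6). The next levels were 21.1 and 20.3 CPM in myoid cells and 16.4 and 13.8 CPM in stroma. The log2 difference from myoid cells was 2.08 ± 0.17 (SE; edgeR adjusted p = 4.1e-07), and Lama4 was higher in Leydig cells than in each of the 5 other types in pairwise tests.

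Of the beta chains, Lamb1 was the main one in Sertoli, myoid, stromal and germ cells. It stood at 370.3 and 349 CPM in myoid cells and 356 and 329.8 CPM in stroma, which did not differ beyond their spread (log2 difference 0.10 ± 0.23 SE, edgeR adjusted p = 0.89), and then at 124 and 71.0 CPM in germ cells, 88.3 and 65.6 CPM in Leydig cells and 85.6 and 87.7 CPM in Sertoli cells. Without called doublets Lamb1 was at 68.0 and 67.9 CPM in Sertoli cells and 81.5 and 62.6 CPM in Leydig cells. Lamb2 was highest in Leydig cells at 60.5 and 76.6 CPM, against 29.2 and 28.5 CPM in stroma, a log2 difference of 1.28 ± 0.15 (SE; edgeR adjusted p = 8.9e-06). Lamb3, the beta chain of epithelial laminins, was low everywhere, but at 3.79 and 3.90 CPM in stroma it exceeded the 0.681 and 0.618 CPM of myoid cells (log2 difference 2.49 ± 0.51 SE, edgeR adjusted p = 0.0075).

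Of the gamma chains, Lamc3 set myoid cells and stroma apart from the other types. It was at 221 and 191 CPM (95% intervals 211 to 231 and 181 to 202) in myoid cells and at 108 and 82.4 CPM in stroma. The level was 5.80 and 5.02 CPM in Sertoli cells, or 0.770 and 1.01 CPM without called doublets. In Leydig cells it was 11.3 and 4.10 CPM, or 5.97 and 4.17 CPM without called doublets. Between myoid cells and stroma the log2 difference was 1.15 ± 0.20 (SE; edgeR adjusted p = 0.0018). Lamc1, the common gamma chain, went from 91.3 and 90.3 CPM in myoid cells to 63.5 and 58.2 CPM in Leydig cells, 55.9 and 61.5 CPM in stroma, 29.0 and 26.9 CPM in Sertoli cells, 33.9 and 13.5 CPM in germ cells and 16.1 and 0 CPM in macrophages, the last on 5 and 0 UMIs.

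The chains were also given as shares of the UMIs of their class in the 4 types with most cells, of which myoid cells and stroma were alike in alpha and beta chains. Lama2 made up 88.0% (86.7 to 89.1) and 89.4% (88.1 to 90.7) of alpha chain UMIs in myoid cells and 88.0% (87.2 to 88.8) and 89.5% (88.7 to 90.4) in stroma. In Leydig cells Lama4 took 62.7% (58.0 to 67.2) and 58.7% (52.9 to 64.3). Sertoli cells had a mixed set, in which Lama1 took 39.4% (37.4 to 41.5) and 38.6% (36.3 to 40.9), Lama3 21.8% and 16.8%, Lama2 17.4% and 21.4% and Lama4 17.0% and 18.3%. Without called doublets Lama1 took 47.1% (44.8 to 49.5) and 47.2% (44.3 to 50.1) there, Lama3 26.0% and 20.8%, Lama4 18.4% and 21.5%, and Lama2 3.04% (2.28 to 3.95) and 4.56% (3.44 to 5.90). Lamc3 took 70.7% (69.0 to 72.4) and 67.9% (65.7 to 70.0) of gamma chain UMIs in myoid cells, 65.8% (64.4 to 67.1) and 57.3% (55.7 to 58.9) in stroma and 16.7% (14.6 to 18.9) and 15.7% (13.4 to 18.3) in Sertoli cells, where it took 2.74% (1.75 to 4.09) and 3.88% (2.47 to 5.76) without called doublets. Lamb2 took 40.7% (35.8 to 45.7) and 53.9% (48.5 to 59.2) of beta chain UMIs in Leydig cells and 18.1% and 19.3% in Sertoli cells, but 6.87% and 7.07% in myoid cells and 7.50% and 7.87% in stroma. Intervals are exact Clopper-Pearson 95% intervals and, as all intervals given here, cover counting error only.

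**Figure D2:**
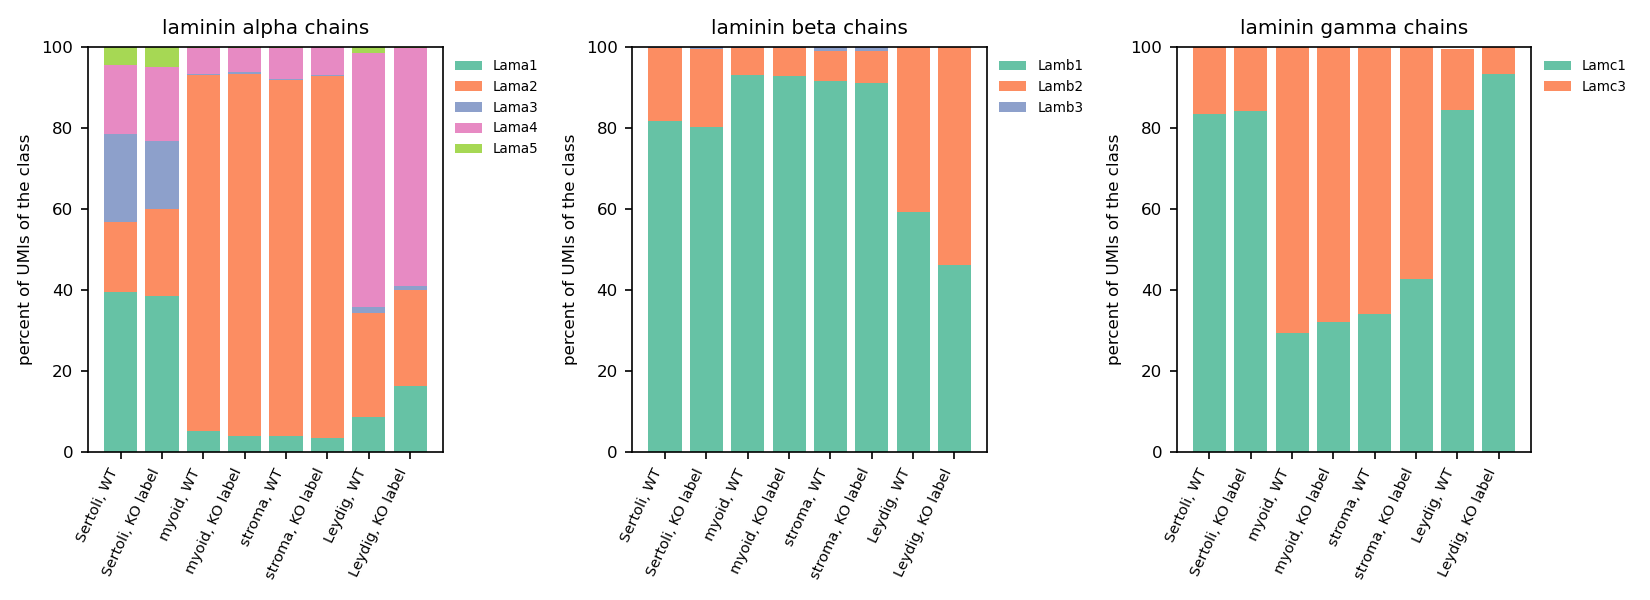
Share of each chain among the UMIs of the laminin alpha, beta and gamma chains (3 panels, percent) in Sertoli, myoid, stromal and Leydig cells of each library (WT, wild type; KO label, library labelled Ddx5 cKO). Lama2 and Lamc3 fill most of the bars of myoid cells and stroma, Lama4 most of the Leydig bars, and the Sertoli alpha chains are mixed, called doublets included.

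Since a laminin needs 1 chain of each class, cells with at least 1 UMI of an alpha, a beta and a gamma chain were counted after each cell had been thinned to 5000 UMIs. They were 54.2% (50.5 to 57.9) and 46.6% (42.2 to 51.1) of myoid cells and 28.6% (26.9 to 30.3) and 24.5% (22.8 to 26.2) of stromal cells. In Leydig cells the shares were 10.4% (6.16 to 16.1) and 7.87% (3.84 to 14.0) and in Sertoli cells 1.72% (1.21 to 2.36) and 1.57% (1.02 to 2.31), or 1.01% (0.617 to 1.55) and 1.14% (0.651 to 1.84) without called doublets. Germ cells had 2 such cells of 66 and 0 of 8, and macrophages 0 of 21 and 0 of 13. The order of myoid cells, stroma, Leydig cells and Sertoli cells was the same in both libraries. Before thinning the shares were 86.8% and 89.4%, 58.5% and 53.9%, 53.0% and 43.0%, 19.1% and 21.4% and, for the deeper germ cells, 43.9% and 12.5%. Thinning left out 1 macrophage, 3 myoid, 18 Sertoli and 63 stromal cells of wild type as too shallow, and 1 Leydig, 4 Sertoli and 55 stromal cells of the other library.

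**Figure D3:**
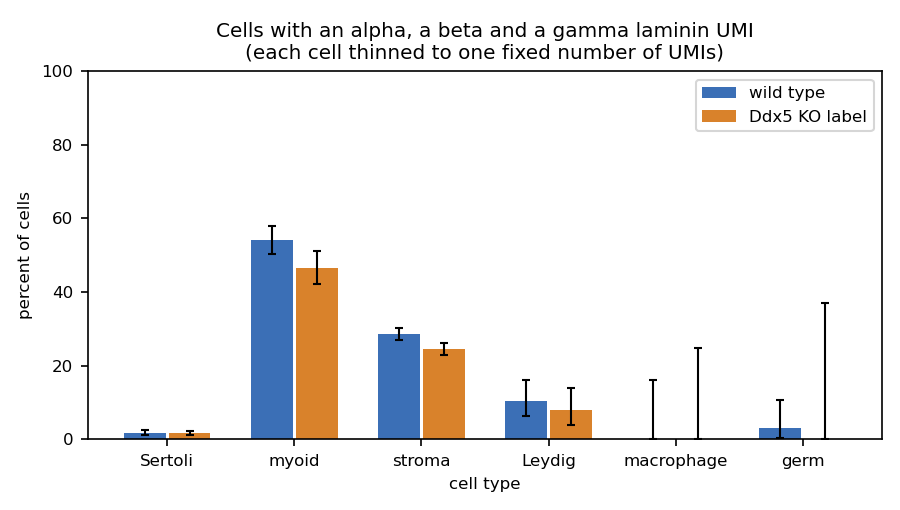
Percent of cells with at least 1 UMI of an alpha, a beta and a gamma laminin chain, each cell thinned to 5000 UMIs, by type and library. Bars are shares and whiskers exact 95% intervals; the share is 54.2% and 46.6% in myoid cells and under 2% in Sertoli cells.

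The linkers split into matrix and receptor. Nid1, nidogen 1, was at 244 and 277 CPM in myoid cells and 243 and 264 CPM in stroma, with a log2 difference of 0.07 ± 0.24 (SE; edgeR adjusted p = 0.94), so that these neighbours did not differ beyond their spread. It was at 58.0 and 72.1 CPM in Sertoli cells (44.9 and 55.6 CPM without called doublets) and at or under 39.8 CPM in the other types. Hspg2 was at 213 and 254 CPM in myoid cells, 165 and 171 CPM in stroma, 30.4 and 39.3 CPM in Leydig cells and 19.4 and 23.5 CPM in Sertoli cells, which came to 12.5 and 13.2 CPM without called doublets. Nid2, nidogen 2, was instead higher in stroma (58.5 and 66.9 CPM) than in myoid cells (33.1 and 34.8 CPM; log2 difference 0.85 ± 0.21 SE, edgeR adjusted p = 0.014), and germ cells held 113 and 0 UMIs, or 51.1 and 0 CPM. Agrn, agrin, which binds laminin and dystroglycan, did not pass 19.2 CPM in any type.

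Dag1, which encodes both parts of dystroglycan, was the leading linker of Sertoli cells, Leydig cells and wild-type germ cells. Its level was 307 and 258 CPM (95% intervals 301 to 313 and 252 to 264) in Sertoli cells and 188 and 165 CPM in Leydig cells, a log2 difference of 0.64 ± 0.35 (SE; edgeR adjusted p = 0.18) that missed the threshold. Myoid cells had 90.4 and 89.4 CPM, stroma 75.7 and 76.5 CPM and macrophages 38.6 and 12.2 CPM. Germ cells had 129 and 16.9 CPM, the widest gap between the libraries among the types. A Dag1 UMI was found in 97.4% and 96.6% of Sertoli cells, and in 77.3% and 71.3% after thinning.

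**Figure D4:**
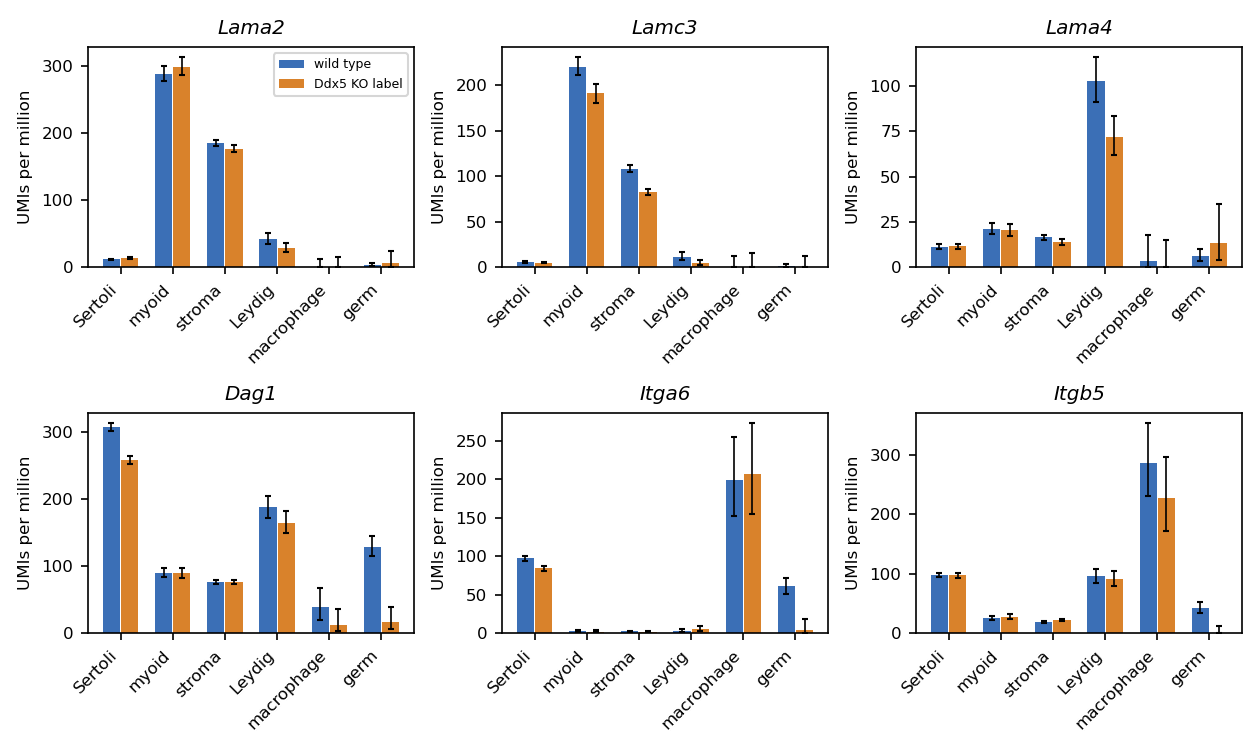
Levels of 6 members in CPM by cell type and library, with exact Poisson 95% intervals as whiskers. Lama2 and Lamc3 stand highest in myoid cells and then stroma, Lama4 in Leydig cells, Dag1 in Sertoli cells, and Itga6 and Itgb5 in macrophages and then, for Itga6, Sertoli cells.

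Among the receptors, Itgb1, the beta subunit shared by the laminin and collagen integrins, was expressed in every type, at 674 and 637 CPM in myoid cells, 447 and 445 CPM in stroma, 264 and 266 CPM in Sertoli cells, 216 and 142 CPM in macrophages, 187 and 173 CPM in Leydig cells and 166 and 94.6 CPM in germ cells. Myoid cells stood above stroma in both libraries, but the difference missed the threshold (log2 difference 0.58 ± 0.25 SE, edgeR adjusted p = 0.17), while that from Leydig cells passed it (1.86 ± 0.26 SE, edgeR adjusted p = 5.0e-05). It made up 85.2% and 85.9% of beta subunit UMIs in stroma and 35.4% and 32.1% in macrophages.

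Itga6, a laminin receptor subunit, was at 199 and 207 CPM in macrophages, 97.4 and 84.4 CPM in Sertoli cells and 61.1 and 3.38 CPM in germ cells, but between 2.01 and 5.33 CPM in the sums of myoid, stromal and Leydig cells. It was higher in macrophages than in Sertoli cells by 1.26 ± 0.28 on the log2 scale (SE; edgeR adjusted p = 0.004), and it took 53.9% and 49.0% of alpha subunit UMIs in Sertoli cells. Itga3, a second laminin receptor subunit, was low, with 3.21 and 3.62 CPM in Sertoli cells and 9.05 and 0 CPM in germ cells. Itga7, the laminin receptor subunit of muscle, was at 3.63 and 3.86 CPM in myoid cells, and 4.52 and 6.76 CPM in germ cells rested on 10 and 2 UMIs.

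The collagen receptor subunit Itga1 was at 27.5 and 22.7 CPM in myoid cells, 2.87 and 2.82 CPM in stroma and, on 13 and 6 UMIs, 5.88 and 20.3 CPM in germ cells, and the few endothelial-marker cells outside the 6 types had 179.7 and 159.9 CPM. Myoid cells and stroma showed a log2 difference of 3.17 ± 0.24 (SE; edgeR adjusted p = 1.3e-06). Itga8, the receptor subunit for nephronectin, was at 7.95 and 12.1 CPM in myoid cells and 1.06 and 1.54 CPM in stroma (log2 difference 2.96 ± 0.29 SE, edgeR adjusted p = 1.5e-05). Itga4, which binds fibronectin and VCAM1, was the leading alpha subunit of stroma at 105 and 119.8 CPM, above the 46.9 and 59.5 CPM of myoid cells by 1.05 ± 0.15 on the log2 scale (SE; edgeR adjusted p = 0.0003), and macrophages had 70.8 and 44.7 CPM. Itga5, the fibronectin receptor subunit, was at 17.0 and 18.1 CPM in myoid cells and 17.0 and 18.4 CPM in stroma. Itga11 stayed at or under 6.63 CPM in all somatic sums.

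Itga9 was the leading alpha subunit of Leydig cells, where it took 80.3% (76.8 to 83.5) and 80.7% (77.3 to 83.8) of alpha subunit UMIs. Its level of 171 and 200.4 CPM (95% intervals 156 to 188 and 183 to 219) compared with 61.3 and 65.2 CPM in myoid cells and 58.0 and 68.0 CPM in stroma, and the log2 difference from myoid cells was 1.55 ± 0.19 (SE; edgeR adjusted p = 1.6e-05). Itga9, Lama4 and Lamb2 were the 3 members that stood above each of the 5 other types in Leydig cells.

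The beta subunits that pair with Itgav, which bind vitronectin and latent TGF-beta, divided the types. Itgb5 was at 286 and 228 CPM in macrophages, 97.2 and 97.0 CPM in Sertoli cells and 95.8 and 91.0 CPM in Leydig cells, and the latter types did not differ beyond their spread (log2 difference 0.02 ± 0.29 SE, edgeR adjusted p = 0.98). Itgb8 had the opposite distribution, at 73.1 and 62.9 CPM in myoid cells and 48.0 and 36.8 CPM in stroma (log2 difference 0.72 ± 0.11 SE, edgeR adjusted p = 5.3e-04), and 0 UMIs in macrophages. Itgb3 was at 13.7 and 14.8 CPM in myoid cells, 10.6 and 11.96 CPM in stroma and 12.7 and 3.38 CPM in germ cells. Itgav itself ranged from 70.8 and 65.1 CPM in macrophages and 52.6 and 51.1 CPM in Sertoli cells to 23.3 and 25.8 CPM in Leydig cells and 11.8 and 16.9 CPM in germ cells.

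The leukocyte integrins were highest in macrophages among the 6 types. Itgb2 was at 86.8 and 73.2 CPM, Itgam at 54.7 and 56.9 CPM and Itgal at 41.8 and 48.8 CPM. Many of their UMIs lay outside the 6 types: 71 of 165 Itgb2, 77 of 136 Itgam and 57 of 149 Itgal UMIs were inside them. In cells that met no rule Itgb2 was at 13.3 and 29.2 CPM, and neutrophil markers there summed to 20.2 and 956 CPM. No other type passed 0.568 CPM for Itgb2 or 0.647 CPM for Itgam, and Itgal reached 3.62 and 3.38 CPM in germ cells on 8 and 1 UMIs. Itgb7 had 3 and 0 UMIs in macrophages. Itgax and Itgb6 had under 20 UMIs over all 6 types, with 7 and 3. Together with Itgae, of which 32 of 58 UMIs were in wild-type germ cells, and Itga10, these were the 4 members that did not pass the filter on low counts. The remaining low members, Itga2 and Itgb4, were at 2.26 and 3.38 CPM and at 2.71 and 13.5 CPM in germ cells, on 5 and 1 UMIs and 6 and 4 UMIs, and Itgb4 had 1 UMI (3.22 CPM) in wild-type macrophages.

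To show the DNA next to the starts of members with these opposite patterns, the 250 bases before the start site are given for Nid1 and Itgb8, high in myoid cells and stroma, and for Itgb5 and Itgam, high in macrophages. They are from RefSeq promoter windows of GRCm38.p6, which held 26 of the 40 members. The windows are chr13:13437352-13437601 on the plus strand for Nid1 (gene at chr13:13437602-13512275), chr12:119238277-119238526 on the minus strand for Itgb8 (gene at chr12:119162803-119238276), chr16:33829415-33829664 on the plus strand for Itgb5 (gene at chr16:33829665-33949338), and chr7:128062390-128062639 on the plus strand for Itgam (gene at chr7:128062640-128118491). Capitals mark GGGCGG, the GC box, on either strand.
Nid1: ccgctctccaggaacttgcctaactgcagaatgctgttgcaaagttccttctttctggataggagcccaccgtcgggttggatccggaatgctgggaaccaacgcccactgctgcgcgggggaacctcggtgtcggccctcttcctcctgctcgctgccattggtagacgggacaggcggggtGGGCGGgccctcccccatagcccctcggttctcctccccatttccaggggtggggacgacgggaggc
Itgb8: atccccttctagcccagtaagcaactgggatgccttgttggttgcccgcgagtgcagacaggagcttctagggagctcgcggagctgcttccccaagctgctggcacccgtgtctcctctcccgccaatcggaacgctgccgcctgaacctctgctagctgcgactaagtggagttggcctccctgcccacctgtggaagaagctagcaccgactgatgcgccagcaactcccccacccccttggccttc
Itgb5: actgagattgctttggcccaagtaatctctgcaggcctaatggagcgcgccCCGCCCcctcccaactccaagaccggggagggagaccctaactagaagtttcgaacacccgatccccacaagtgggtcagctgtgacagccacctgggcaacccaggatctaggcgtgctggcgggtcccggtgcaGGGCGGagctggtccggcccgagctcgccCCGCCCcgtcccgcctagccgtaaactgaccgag
Itgam: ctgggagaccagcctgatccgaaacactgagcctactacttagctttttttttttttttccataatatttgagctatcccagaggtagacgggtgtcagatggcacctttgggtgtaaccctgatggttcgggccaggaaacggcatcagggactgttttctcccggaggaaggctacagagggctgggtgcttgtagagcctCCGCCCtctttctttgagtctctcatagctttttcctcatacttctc

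The window of Itgb5 held 3 matches, those of Nid1 and Itgam 1 each, and that of Itgb8 none. Counted by gene, over any window of the gene, a match was found in 12 of the 26 members with a window. Counted by single window, it was found in 32.7% of all 32851 windows of this length. These shares differ in unit and were not compared. Other members named above lie at chr10:26981285-27617191 (Lama2), chr12:31265146-31329644 (Lamb1), chr2:31887281-31949083 (Lamc3), chr9:108204861-108263977 (Dag1), chr2:71786886-71858427 (Itga6) and chr9:118606709-118901003 (Itga9) in the same build.

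In the test of each type against the mean of the 5 others, 36 of the 40 members were tested. In myoid cells 20 were higher and 2 lower, against 25.1% and 10.0% of all 16035 genes tested, and in stroma 17 were higher and 2 lower (27.5% and 10.4% of all genes). The numbers were 9 and 7 in Sertoli cells (27.1% and 10.1%), 8 and 6 in Leydig cells (22.7% and 9.65%), 8 and 7 in macrophages (11.4% and 9.81%) and 11 and 7 in germ cells (28.8% and 20.7%). On a log2 scale with 10 CPM added, the median of the members tested was 0.14 in myoid cells and 0.02 in stroma, against -0.11 and -0.08 over all genes. The medians were -0.31 in Sertoli cells, -0.45 in Leydig cells, -0.43 in macrophages and -0.80 in germ cells, against -0.09, -0.14, -0.35 and -0.08. Without the wild-type germ cells 3 members were higher in germ cells, without the wild-type macrophages 5 were higher in macrophages, and without the Leydig cells of either library 4 were higher in Leydig cells. Of the lower members, 4 were counted in Sertoli cells without the wild-type macrophages, 1 in myoid cells without the myoid cells of either library, 1 in stroma without the wild-type germ cells, and 1 in Leydig cells without the Leydig cells of either library (3 without the wild-type myoid cells, stroma or macrophages). In macrophages 3 were lower without the macrophages of the library labelled Ddx5 cKO and 11 without its germ cells, and in germ cells 11 were lower without the wild-type germ cells. Macrophages had 0 UMIs of 15 members, among them 7 of the 11 laminin chains. Under an alternative chosen after seeing the data, with macrophages left out of the others, 9, 19, 17, 7 and 11 members were higher in Sertoli, myoid, stromal, Leydig and germ cells (27.8%, 25.0%, 28.3%, 24.0% and 28.8% of all genes), and 14, 4, 7, 10 and 17 were lower (20.3%, 16.3%, 17.4%, 18.5% and 28.8%).

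A stricter reading asked whether a member was higher in 1 type than in each of the 5 others. This held for 4 members in myoid cells (Lamc1, Lamc3, Itga1 and Itgb8), 3 in Leydig cells (Lama4, Lamb2 and Itga9) and 5 in macrophages (Itga6, Itgal, Itgam, Itgb2 and Itgb5), against 1.55%, 4.7% and 5.93% of all 16035 genes. It held for 0 in Sertoli cells, stroma and germ cells by edgeR at an adjusted p of 0.05 (4.07%, 1.97% and 7.2% of all genes), and for 1, 2 and 0 at an unadjusted p of 0.05.

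Germ cells at P2 lie inside the cord, among Sertoli cells. In the 66 wild-type germ cells, whose median depth was 33463.5 UMIs, the leading members were Itgb1, Dag1 and Lamb1, at 166, 129 and 124 CPM. Itga6 (61.1 CPM), Nid2 (51.1 CPM), Itgb5 (42.5 CPM), Nid1 (39.8 CPM) and Lamc1 (33.9 CPM) came next. The laminin chains had 72 alpha and 281 beta UMIs in these cells. A Lamb1 UMI was found in 80.3% and 87.5% of germ cells and, after thinning, in 39.4% and 25.0%. Markers of Sertoli cells summed to 1.79% and 1.13% of their Sertoli level in germ cells, and those of stroma to 1.78% and 1.96% of their stromal level. In the 53 wild-type germ cells with 0 Amh UMIs, Lamb1 was at 123, Dag1 at 126, Nid2 at 52.6 and Lamc1 at 27.5 CPM.

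Between the libraries, members were compared within a type where both libraries together held at least 50 UMIs, and a ratio of at least 1.5 either way was set apart. Such ratios compare 2 libraries, with no replicate check. In stroma, none of 25 members passed it, against 4.27% of all genes compared (2.22% higher, 2.05% lower), and the ratios ran from 0.763 for Lamc3 to 1.46 for Itga8. In myoid cells 1 of 24 passed (3.99% of all genes, 1.8% higher and 2.19% lower), Itga8 at 70 and 78 UMIs and a ratio of 1.52 (95% interval 1.08 to 2.13). None of 14 passed in Leydig cells (5.31% of all genes, 2.47% higher and 2.84% lower), where the lowest ratios were those of Lama2 at 0.685 (95% interval 0.502 to 0.930) and Lama4 at 0.701 (95% interval 0.576 to 0.850). Of the leading matrix genes in stroma and myoid cells, Lama2 had ratios of 0.954 and 1.04, Lamb1 of 0.927 and 0.943, Nid1 of 1.09 and 1.14, Hspg2 of 1.04 and 1.19 and Lamc3 of 0.763 (95% interval 0.722 to 0.806) and 0.866 (95% interval 0.806 to 0.930).

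In Sertoli cells 3 of 25 members passed, all higher in the library labelled Ddx5 cKO, against 5.67% of all genes either way (3.47% higher, 2.2% lower). Itga4 had 242 and 335 UMIs and a ratio of 1.69 (95% interval 1.42 to 2.00), Itga5 43 and 68 UMIs and a ratio of 1.93 (95% interval 1.30 to 2.89), and Nid2 130 and 163 UMIs and a ratio of 1.53 (95% interval 1.21 to 1.94). In stroma the same genes were at 105 and 119.8 CPM, 17.0 and 18.4 CPM and 58.5 and 66.9 CPM, against 7.12 and 12.004 CPM, 1.27 and 2.44 CPM and 3.82 and 5.84 CPM in Sertoli cells. The stroma marker list in Sertoli cells moved with them, from 514 to 779 CPM (6.53% and 10.0% of its stromal level), with none of its 6 markers at 0, and its part in these ratios was not tested beyond the doublets. Without the doublets called by Scrublet no member passed, against 2.45% of all genes higher and 2.48% lower. Itga4 then had 58 and 59 UMIs and a ratio of 1.34 (95% interval 0.915 to 1.96). Itga5, with 20 and 20 UMIs, and Nid2, with 26 and 19, fell under the minimum of 50 UMIs, with ratios of 1.32 (95% interval 0.672 to 2.58) and 0.961 (95% interval 0.503 to 1.81). Of the leading receptors of Sertoli cells, Dag1 and Itga6 had ratios of 0.840 (95% interval 0.815 to 0.865) and 0.866 (95% interval 0.821 to 0.913), and Itgb1 and Itgb5 of 1.01 (95% interval 0.976 to 1.04) and 0.998 (95% interval 0.948 to 1.05). The ratio of Lama3 was 0.717 (95% interval 0.618 to 0.830).

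In macrophages 1 of 3 members passed, Itgb1 with 67 and 35 UMIs and a ratio of 0.660 (95% interval 0.426 to 1.01), against 16.4% of all genes (9.09% lower, 7.33% higher). In germ cells the minimum of 50 UMIs was reached through wild type, which held 2211053 UMIs against 295905, so that mainly members high in wild type could be compared. The 8 compared were lower in the library labelled Ddx5 cKO, as were 60.1% of the 6771 genes compared there (12.1% were higher, 72.2% past the fold either way), and nothing is read from that count. Members under the minimum had ratios above 1 as well, such as Itga1 with 13 and 6 UMIs and a ratio of 3.45 (95% interval 1.07 to 9.73) and Itgb4 with 6 and 4 UMIs and a ratio of 4.98 (95% interval 1.03 to 21.0). Of those compared, Dag1 had 285 and 5 UMIs with a ratio of 0.131 (95% interval 0.0422 to 0.310), Itga6 135 and 1 UMIs with a ratio of 0.0553 (95% interval 0.00139 to 0.314), Lamb1 274 and 21 UMIs with a ratio of 0.573 (95% interval 0.349 to 0.893) and Itgb1 368 and 28 UMIs with a ratio of 0.569 (95% interval 0.373 to 0.836). The ratio was 0.399 (95% interval 0.106 to 1.06) for Lamc1 and 0.425 (95% interval 0.135 to 1.03) for Nid1, and both intervals hold 1. Nid2 and Itgb5 had 0 UMIs in the 8 cells. The 95% intervals of their ratios reached up to 0.248 for Nid2 and 0.299 for Itgb5. Only 8 cells stand behind these values, and the germ cell markers of the same cells summed to 981 and 531 CPM. With CPM taken outside ribosomal protein and mitochondrial genes, 6 members passed, and among cells of 3000 genes or more and 5% mitochondrial UMIs or fewer, 3 passed.

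**Figure D5:**
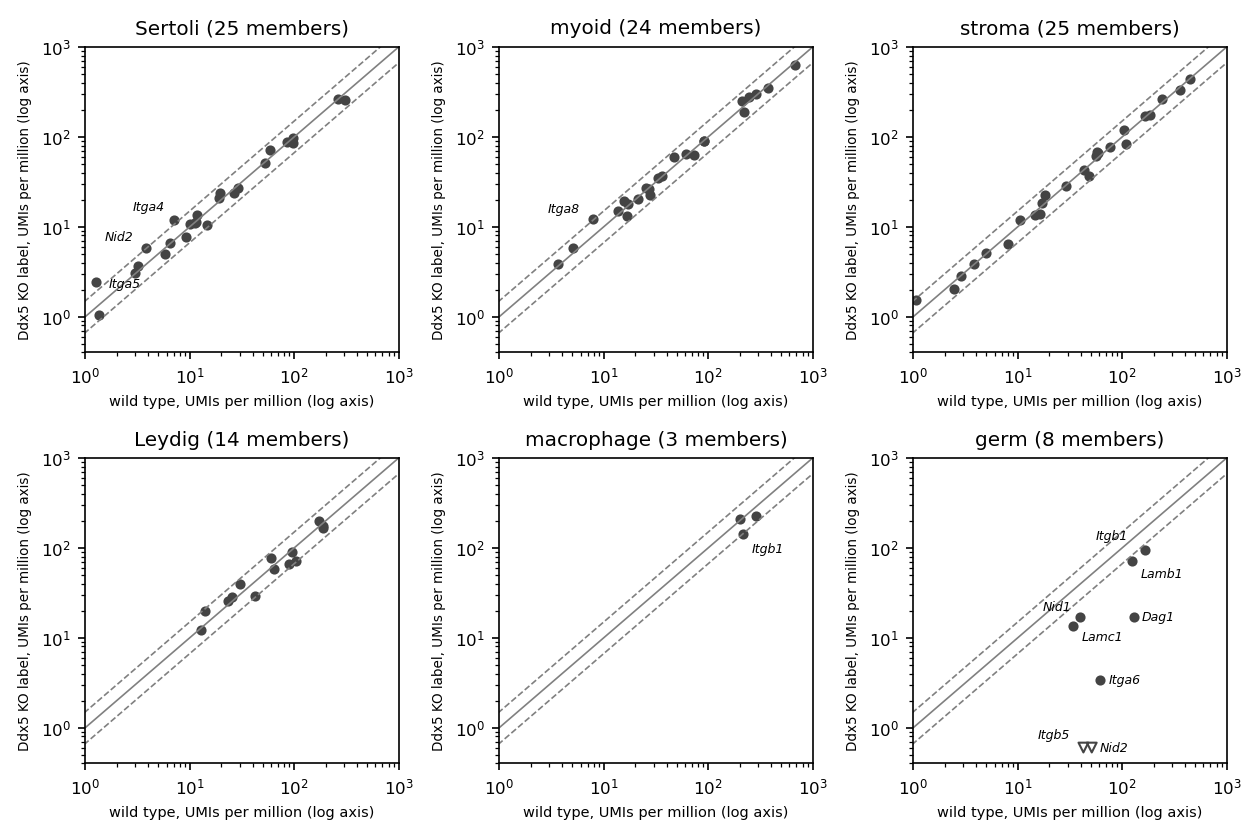
CPM in wild type (horizontal) against the library labelled Ddx5 cKO (vertical), both on log axes, for the members with at least 50 UMIs in each cell type. The solid line marks equal levels and the dashed lines a 1.5-fold difference, members past it are named, and open triangles are members with 0 UMIs in the library labelled Ddx5 cKO. The 8 germ cell members, which reached the minimum through wild type, lie below the lower line, and the stromal and Leydig members lie between the lines.

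Within Sertoli, stromal and myoid cells, cycling cells (at least 3 UMIs of the proliferation genes Mki67 and Top2a) were set against cells with 0 such UMIs in each library, for example 547 against 2016 stromal cells of wild type. Of 25 members in stroma, Itga1 and Itga8 were at least 1.5-fold higher in cycling cells of both libraries, against 9.97% of all genes. The ratio of Itga1 was 1.88 (1.16 to 3.03) and 2.57 (1.52 to 4.33), and that of Itga8 2.28 (1.02 to 5.08) and 2.59 (1.25 to 5.32). Cycling stromal cells were deeper, with a median of 13946 and 14580.5 UMIs against 9014 and 9222, and in cells thinned to 5000 UMIs the ratio was 1.88 and 2.96 for Itga1 and 2.41 and 1.13 for Itga8. None of 25 members in Sertoli cells or 23 in myoid cells passed in both libraries in this direction, against 6.21% and 8.33% of all genes, and none passed in the other direction in the 3 types (2.08%, 4.36% and 6.13% in Sertoli, myoid and stromal cells). By the mean of both libraries, the largest ratios were those of Nid2, 1.18 (0.797 to 1.77) and 1.73 (1.17 to 2.61), Itga6, 1.30 (1.20 to 1.41) and 1.37 (1.24 to 1.505), and Lama1, 1.24 (1.07 to 1.44) and 1.40 (1.17 to 1.67), in Sertoli cells, and the smallest those of Itga3, 0.680 (0.443 to 1.04) and 0.545 (0.349 to 0.849), and Itga11, 0.562 (0.413 to 0.761) and 0.668 (0.483 to 0.924). The Sertoli UMIs of Nid2 lay mostly in called doublets (80.0% and 88.3%), and the ratio of Itgb3 went opposite ways, 0.656 (0.334 to 1.28) and 1.49 (0.585 to 4.24). So did that of Lama2, 0.757 (0.606 to 0.947) and 1.28 (1.004 to 1.63), whose Sertoli UMIs also lay mostly in called doublets (86.6% and 85.5%). In myoid cells the largest by this mean were those of Lamb2, 1.38 (1.05 to 1.82) and 1.09 (0.780 to 1.51), Agrn, 1.27 (0.881 to 1.84) and 1.20 (0.812 to 1.78), and Itga8, 0.995 (0.577 to 1.69) and 1.54 (0.935 to 2.53), and the smallest those of Lama1, 0.713 (0.486 to 1.03) and 0.685 (0.391 to 1.16), and Itga9, 0.667 (0.546 to 0.812) and 0.743 (0.593 to 0.927).

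Genes of the same pathway were read from the same test. Type IV collagen, which forms the second network of the basement membrane, and other basement membrane genes made up a list of 24, of which 21 were tested. Of these 14 were higher in myoid cells and 16 in stroma, with 1 lower in each, against 25.1% and 27.5% of all genes higher and 10.0% and 10.4% lower. In macrophages 11 were lower, against 9.81% of all genes. Col4a1 was at 1563 and 1355 CPM in myoid cells, 537 and 467 CPM in stroma and 252 and 217 CPM in Sertoli cells. Col4a4 was at 795 and 741 CPM in myoid cells and 187 and 164 CPM in stroma, with 0 UMIs in macrophages. Col4a3 (107 and 96.0 CPM) and Frem1 (30.5 and 32.3 CPM) were next in myoid cells by the size of the difference, and Col4a6 (17.7 and 16.4 CPM) and Col4a5 (67.9 and 69.5 CPM) led in stroma. The list's median on the scale with 10 CPM added was 0.86 in myoid cells, 0.48 in stroma and -2.05 in macrophages, against -0.11, -0.08 and -0.35 over all genes.

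In the other types fewer genes of the list were higher. Sertoli cells, with 8 of 21 higher and 2 lower (27.1% and 10.1% of all genes), had Col18a1, the source of endostatin, at 247 and 237 CPM and Fbln2 at 89.1 and 89.6 CPM. Leydig cells, with 5 higher and 4 lower (22.7% and 9.65% of all genes), had Smoc1 at 66.5 and 59.4 CPM and Col18a1 at 70.6 and 88.5 CPM. In germ cells 3 were higher and 8 lower (28.8% and 20.7% of all genes). Frem2 was at 6.78 and 20.3 CPM there, and Sparc, a collagen-binding matrix protein, at 65.6 and 40.6 CPM against 2265 and 2214 CPM in Sertoli cells.

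Of 16 tested genes of the dystroglycan complex and its glycosylation, 8 were higher and 2 lower in Sertoli cells, and 8, 7 and 7 were higher in stroma, myoid and Leydig cells, while 4 were lower in macrophages and 1 was higher and 7 lower in germ cells. The shares of all genes higher, against which these and the next counts stand, were 27.1% in Sertoli cells, 27.5% in stroma, 25.1% in myoid cells, 22.7% in Leydig cells, 11.4% in macrophages and 28.8% in germ cells, and those lower 10.1%, 10.4%, 10.0%, 9.65%, 9.81% and 20.7%. Dtna, dystrobrevin alpha, was at 136 and 118 CPM in Sertoli cells and 40.7 and 64.2 CPM in germ cells, and at 4.88 and 4.10 CPM in Leydig cells. Sntb1, a syntrophin, was at 13.2 and 20.9 CPM in Leydig cells. Of 17 integrin adhesion genes, 9 were higher and 1 lower in myoid cells, 8 and 3 in stroma, 5 and 4 in Sertoli cells, 4 and 6 in Leydig cells, 5 and 4 in macrophages and 4 and 4 in germ cells. Parva, alpha-parvin, was at 114 and 118 CPM in myoid cells and had 0 UMIs in macrophages. Of 6 other laminin receptors 4 were higher and 1 lower in Sertoli cells, 3 and 2 in stroma and in myoid cells, 2 and 2 in Leydig cells and 1 and 1 in macrophages and in germ cells. Sdc2, syndecan 2, was at 92.1 and 93.8 CPM in myoid cells and at 0 UMIs in macrophages. Of 7 other integrin ligands, 4 were higher in stroma and in macrophages, 3 in myoid cells and 1 each in Sertoli and Leydig cells, and 4 each were lower in Sertoli and Leydig cells, 3 in germ cells, 2 in stroma and 1 each in myoid cells and macrophages. Spp1, osteopontin, which binds the integrins with Itgav, was at 640.1 and 1647 CPM in macrophages and 501 and 465 CPM in Sertoli cells, which of the 6 types had the highest Itgav levels.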

How the data were processed

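Single-cell RNA of whole P2 testes was measured by 10x Genomics 3′ sequencing. The authors deposited 1 table of UMI counts, made with Cell Ranger 3.1.0 on GRCm38 with GFP and CRE sequences added, per the labels and the study's methods, and Seurat 3.1.5 is named in the submitters' processing notes. No file ties the barcode suffixes to genotypes. Suffix 4 holds fewer barcodes than the number of wild-type cells the study states after its filter, so suffix 3 was taken as wild type. CRE UMIs, looked at afterwards, were 0 and 20. The 8 numbered samples per genotype could not be separated. 1 member is counted in totals but not reported here.

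Barcodes with under 2000 genes or over 10% mitochondrial UMIs were dropped. Cells meeting several type rules were left out (113 and 49), except that stroma gave way to myoid and Leydig cells (1152 cells met both the myoid and stroma rules), and 214 and 162 cells met no rule. Scrublet in scanpy 1.11.5 called 284 (4.49%) and 296 (5.98%) doublets, which were kept in the values given unless stated. UMIs were summed per type and library into 12 sums, whose totals set CPM. The edgeR 4.0.16 quasi-likelihood test (R 4.3.3) with type and library as terms set each type against the mean of the 5 others, with Benjamini-Hochberg adjustment over 16035 genes and a threshold of 0.05. The libraries, of unlike genotype, served as replicates of a type, so that p-values measure only the spread between these 2 libraries. Genotype and cycling ratios have exact conditional binomial 95% intervals and no test. Medians are of log2 values with 10 CPM added. The scripts were tested on simulated data.

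Members, lists and rules were chosen with earlier results of these data known. Named were the leading member of each class in each type, members called at least 2-fold higher in a type, members past the genotype fold, the extremes of the cycling ratios, and the leading pathway genes. Alternatives covered the type rules, doublets, filters, scaling, DESeq2 1.42.0 and each sum left out. Python 3.11.15, NumPy 2.4.6, SciPy 1.17.1, pandas 2.3.3 and matplotlib 3.10.9 were used.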

Additional observations from a re-analysis of the deposited data

Results flagged for a closer look

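Nid2 and Itgb5 were the members compared whose ratio between the libraries had a counting interval wholly above 1 in some cell type and wholly below 1 in another. The ratio of the library labelled Ddx5 cKO over wild type was 1.53 in Sertoli cells and 1.15 in stroma for Nid2, but 0 in germ cells, where 113 and 0 UMIs were counted. For Itgb5 it was 1.23 in stroma and 0 in germ cells, with 94 and 0 UMIs. Both reached the minimum of 50 UMIs in germ cells through wild type, and 60.1% of all genes compared there were lower, on 8 cells of the library labelled Ddx5 cKO. In Sertoli cells no member passed the fold without called doublets, and Nid2 then had 26 and 19 UMIs and a ratio of 0.961 (95% interval 0.503 to 1.81). The differences between types were not tested.

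Cells that met no type rule were outside the comparisons. Among them 5 wild-type cells and 4 of the library labelled Ddx5 cKO had UMIs of at least 2 of 5 endothelial genes. Hspg2 was at 569 and 569 CPM in these cells, Itga1 at 179.7 and 159.9 CPM and Lama4 at 404 and 284 CPM, above the levels of the 6 types. All members together had 213 and 212 UMIs there, or 3189 and 3767 CPM. The profiles were mixed: stroma markers summed to 2261 and 1706 CPM, beside 1437 and 2594 CPM of endothelial markers.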

How the results depend on the processing

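All 74 values recomputed with no replicate block (the library term left out) kept their direction and side of the threshold or stayed within 1.5 times. Counts of members by type moved as follows, and the cause was not tested. Asking for 1.5-fold over the next highest type in both libraries left 1, 2, 0, 3, 5 and 1 higher members in Sertoli, myoid, stromal, Leydig, macrophage and germ cells (2.92%, 0.973%, 1.26%, 3.6%, 5.31% and 7.85% of all genes), and asking for a higher level than each other type in edgeR pairwise tests left 0, 4, 0, 3, 5 and 0 (4.07%, 1.55%, 1.97%, 4.7%, 5.93% and 7.2%; at an unadjusted p of 0.05, 1, 2 and 0 in Sertoli, stromal and germ cells). With every rule a cell meets, lower members were 14 in Sertoli, 5 in stromal, 14 in Leydig, 2 in macrophage and 15 in germ cells, 3 were higher in Leydig cells, and Lama2 in Leydig cells turned to -0.34 (log2 against the other types). With cells of exactly 1 rule, 12 were higher in myoid and 7 in germ cells and 1 lower in stroma. The DESeq2 Wald test gave 15, 4 and 5 lower in Sertoli, myoid and stromal cells. In cells of 3000 genes or more and 5% mitochondrial UMIs or fewer, 1 was lower in Leydig and 4 higher in germ cells. With macrophages left out of the other types (chosen after seeing the data), 14, 4, 7, 10 and 17 were lower in Sertoli, myoid, stromal, Leydig and germ cells.

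Leaving out each sum in turn gave 4 to 9 lower members in Sertoli, 1 to 3 in myoid, 1 to 3 in stromal, 1 to 8 in Leydig, 3 to 11 in macrophage and 5 to 11 in germ cells, and 4 to 9 higher in Leydig, 5 to 8 in macrophage and 3 to 10 in germ cells. The lone sum of a type is then assumed to vary like the others. The log2 value ranged from -3.44 to 6.26 for Itgb7 in macrophages, and in germ cells from -2.16 to 1.79 for Itga6, -4.49 to 5.23 for Itga3 and -0.46 to 2.92 for Itgb3, each lowest without the wild-type sum of that type.

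Members past the genotype fold numbered 5, 2, 2, 2 and 14 in Sertoli, stromal, Leydig, macrophage and germ cells at a minimum of 20 UMIs, and 0, 0 and 3 in myoid, macrophage and germ cells at 200. At a fold of 2 they were 0 in Sertoli, myoid and macrophage cells. With every rule a cell meets they were 2 each in myoid, stromal and Leydig cells and 0 in macrophages, without called doublets 0 in Sertoli and 1 in Leydig cells, and with the stricter gene and mitochondrial filter 3 each in Leydig and germ cells. Stricter type thresholds gave 0 in macrophages, and means of each cell's own CPM 0 in myoid cells and macrophages and 1 in stroma. In cells thinned to 5000 UMIs 1 member was higher in cycling stroma and 2 each lower in cycling Sertoli, stromal and myoid cells, and 1 was lower in Sertoli cells when cycling meant at least 6 UMIs. Of the values of single members, 1722 stayed the same, 52 lost the threshold, 42 moved and 5 reversed.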
